A study of Mus musculus with 15 samples.

Results

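The 8 small-RNA libraries described here were made from Kupffer cells, macrophages that reside in the liver, taken from wt C57BL/6J mice at 2 ages. There were 4 libraries at 9 weeks and 4 at 14 weeks, of 15 libraries in the whole series, and they were chosen by their labelled genotype and age. The remaining 7 libraries, from mice whose strain is labelled ob/ob (3 at 9 weeks and 4 at 14 weeks), served for 1 further comparison. The labels name no treatment, tissue digestion or sort and give the source as liver macrophages. They do not say whether a library came from 1 animal or from a pool. The replicates are therefore separate samples, and the p-values measure the spread between samples, which may be technical. The 9-week and 14-week values were deposited in separate tables, so that age and table cannot be told apart. All 9-week libraries and 14-week replicates 3 and 4 were run on sequencing lane 2, and 14-week replicates 1 and 2 on lane 1.

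MicroRNAs (miRNAs) are short RNAs cut from a hairpin precursor. One arm, the guide, is kept in an Argonaute protein and pairs with messenger RNAs mainly through its seed, bases 2 to 8, and the other arm, the passenger, is mostly degraded. Sets of miRNAs that share a seed can pair with the same messenger sites. Several miRNAs are known to mark macrophages or to set their responses: miR-142a is a marker of blood-derived cells, miR-511 lies in the gene of the mannose receptor Mrc1, and miR-146a and miR-155 are induced by inflammatory signals.

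The question was whether the miRNA profile of wt Kupffer cells differed between 14 and 9 weeks, and no miRNA passed the test. Values have no stated unit and were read as RPM, a miRNA's reads scaled to a fixed library total. They were rescaled so that the typical miRNA has the same level in each library. Differences are 14 minus 9 weeks on the scale of log2(rescaled RPM + 0.5). Of 248 miRNAs listed, 173 reached at least 1 rescaled RPM in at least 4 libraries and were tested with limma. At a Benjamini-Hochberg adjusted p of 0.05, 0 of the 173 were called (0.0%), and the smallest adjusted p was 0.772. At an unadjusted p under 0.05 there were 7 (4.05%), of which 5 were higher and 2 lower at 14 weeks. That last count was 25 of 177 (14.1%) without 14-week replicate 1, 16 without 9-week replicate 2 and 4 without 9-week replicate 3, with 0 called each time. On this scale, the 8 libraries did limit how large a difference could be for most miRNAs. The 95% interval of the difference lay within a 2-fold change in either direction for 131 of the 173 (75.7%) and within a 1.5-fold change for 63 (36.4%). Among the 114 with a mean of at least 10 rescaled RPM, these counts were 96 and 61. For scarcer miRNAs the added 0.5 understates the change, so their intervals limit it less. The interval reached a median of 0.53 on the log2 scale to each side of the fitted value. Fitted differences were small: their median was -0.01 and their median size 0.18, with 84 miRNAs above 0 and 89 below.

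The miRNAs with the smallest p-values are named below with their values and as not passing. Their mature sequences, from RefSeq with coordinates on GRCm38.p6, are given first because several of them share a seed (in capitals, written 5′ to 3′), so that related miRNAs can be read side by side. The first 4 sequences are the 2 members of the miR-10 seed group and 2 of the miR-125 seed group.
miR-10a-5p: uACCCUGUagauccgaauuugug
miR-10b-5p: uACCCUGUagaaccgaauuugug
miR-125a-5p: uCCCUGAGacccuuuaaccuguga
miR-125b-5p: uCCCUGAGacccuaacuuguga
The next 4 are miR-32-5p with miR-92a-3p, which carries the same seed, and miR-103-3p with miR-107-3p, which carries the same seed.
miR-32-5p: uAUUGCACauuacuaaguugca
miR-92a-3p: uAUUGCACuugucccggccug
miR-103-3p: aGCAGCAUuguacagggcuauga
miR-107-3p: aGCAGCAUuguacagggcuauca
The last 5 are the remaining leading miRNAs with an entry, and let-7a-1-3p, which shares its seed with miR-98-3p.
miR-139-5p: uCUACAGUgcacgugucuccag
miR-676-3p: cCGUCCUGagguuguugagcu
miR-141-3p: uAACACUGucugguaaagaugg
miR-98-3p: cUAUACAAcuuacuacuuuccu
let-7a-1-3p: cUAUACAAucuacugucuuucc
miR-10a-5p and miR-10b-5p differ at 1 base, U12A, and miR-103-3p and miR-107-3p at 1 base, G22C, each counted from 1 at the 5′ end and written with the base of the first-named miRNA first. Reads of such pairs are told apart only by that base, so their separate values are uncertain where the authors' counting could split or share reads. RefSeq mature sequences matched 218 of the 248 listed miRNAs by name.

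One library stood apart. The listed miRNAs summed to 147387 RPM in 14-week replicate 1, against 317539 to 353829 RPM in the other 14-week libraries and 297668 to 358621 RPM at 9 weeks. The mean sum was 287749 ± 94754 RPM (SD, n = 4) at 14 weeks and 336291 ± 28949 RPM (SD, n = 4) at 9 weeks (two-sided exact permutation test, p = 0.429, where the smallest p that 4 against 4 allows is 0.0286). If the values are RPM, the depth can be read from the size of the step between values. By that measure, 1 RPM stood for 9.08 reads in 14-week replicate 1, for 39.0, 23.7 and 24.1 reads in the other 14-week libraries and for 22.8, 13.4, 14.1 and 14.3 reads at 9 weeks (two-sided exact permutation test between ages, p = 0.314). In 14-week replicate 1, 45 listed miRNAs were at 0, against 10 to 28 in the other 7 libraries. Results are therefore also given without this library and for lane 2 alone (4 libraries at 9 weeks against 14-week replicates 3 and 4), and the part of its low sum in any result was not tested. Lane 2 alone gave 0 of 184 called (0.0%) and 14 at an unadjusted p under 0.05 (7.61%).

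Libraries of different age were about as alike as libraries of the same age. Over the tested miRNAs, the median absolute log2 difference between 2 libraries was 0.15 to 0.48 for the 16 pairs of unlike age, with a median of 0.31. It was 0.21 to 0.37 for the 6 pairs within 9 weeks (median 0.26) and 0.18 to 0.57 for the 6 pairs within 14 weeks (median 0.36). Without 14-week replicate 1 the medians were 0.28 between ages, 0.26 within 9 weeks and 0.22 within 14 weeks. The closest pair of all was 9-week replicate 2 with 14-week replicate 3, at 0.15, although they differ in age and were deposited in separate tables.

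**Figure D1:**
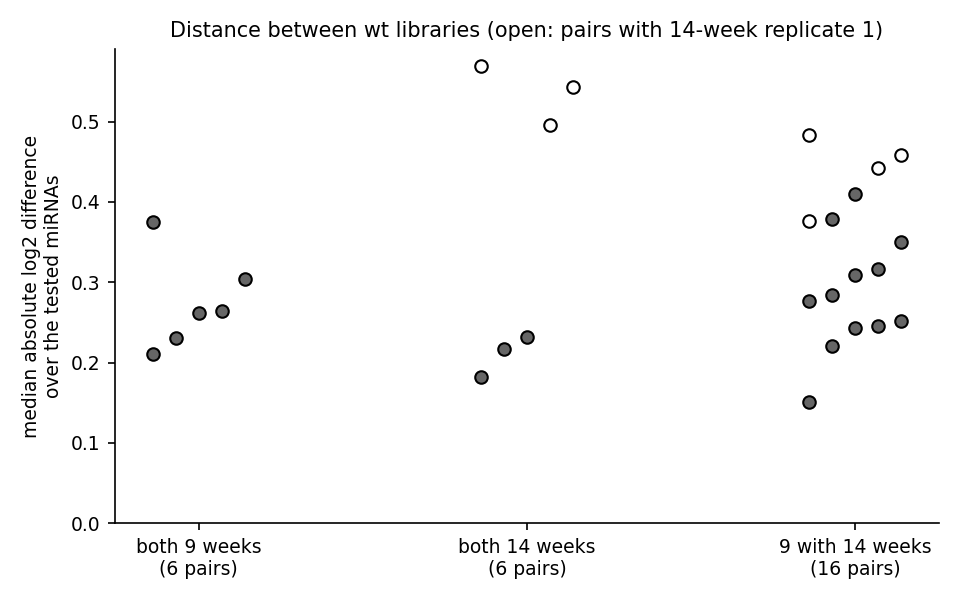
Median absolute log2 difference between each pair of wt libraries over the tested miRNAs (vertical axis), by whether both are 9-week, both 14-week or of unlike age; open circles are pairs that hold 14-week replicate 1. Pairs of unlike age span 0.15 to 0.48 and include the closest pair, and the 3 widest pairs within 14 weeks all hold 14-week replicate 1.

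The smallest p belonged to miR-10b-5p, at chr2:74726074-74726096 on the plus strand in introns of Hoxd3 and Hoxd4. miR-10 hairpins lie in the Hox gene clusters and are known to target Hox messages. Its levels were 52.4, 52.3, 72.0 and 61.1 rescaled RPM at 9 weeks and 154, 77.8, 73.1 and 104 at 14 weeks. Every 14-week library was above every 9-week library, though replicate 3 at each age differed by little, and the highest value was that of 14-week replicate 1. The fitted difference was 0.72 ± 0.24 (SE), a 1.65-fold ratio, with a 95% interval of 0.18 to 1.27 (limma, adjusted p = 0.772). It was 0.55 in lane 2 alone and 0.48 without 14-week replicate 1.

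Its 1-base neighbour miR-10a-5p is intergenic, at chr11:96317186-96317208 on the plus strand, and is one of the most abundant miRNAs in these cells. Levels were 21816, 28319, 24128 and 27170.3 rescaled RPM at 9 weeks and 24515, 37673, 33959 and 35480.0 at 14 weeks. The 3 higher 14-week libraries lay above all 9-week libraries, and 14-week replicate 1 lay within the 9-week range. The difference was 0.36 ± 0.16 (limma, adjusted p = 0.772), and it was 0.45 in lane 2 alone and 0.48 without 14-week replicate 1. The passenger arm miR-10a-3p was at 4.42 to 5.27 rescaled RPM at 9 weeks and 5.13 to 6.17 in 14-week replicates 2 to 4, while in 14-week replicate 1 it was 1.21. Its difference was -0.26 with all libraries and 0.17 without that one. Over the 6 tested members of the miR-10 and miR-100 family, 4 were above 0 and 2 below with a median of 0.21, beside -0.01 over all tested miRNAs. In the values as deposited the split was 3 and 3, with a median of -0.08 against -0.27 over all tested.

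**Figure D2:**
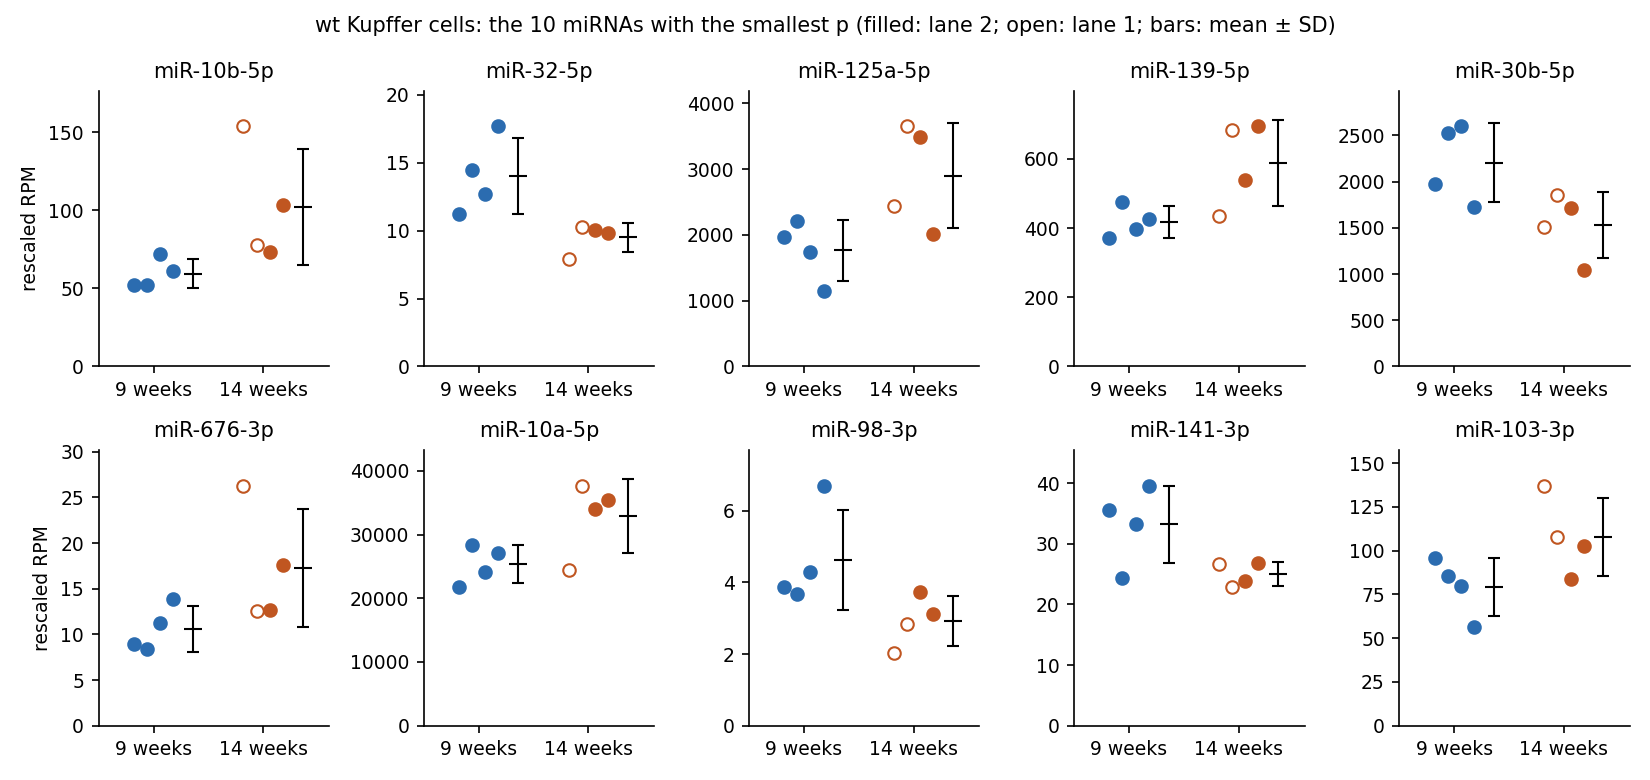
Rescaled RPM (vertical axes, each from 0) of the 10 miRNAs with the smallest p in each wt library at 9 weeks (blue) and 14 weeks (orange), with filled circles for lane 2, open circles for lane 1 and bars for the mean ± SD of 4 libraries. Only miR-10b-5p and miR-32-5p of these 10 have 14-week libraries that do not overlap the 9-week ones, and none passed the test (adjusted p = 0.772 for each).

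Of the miRNAs that were higher at 14 weeks, the next smallest p belonged to miR-125a-5p, at chr17:17830817-17830840 on the plus strand in sequence annotated as an exon of Spaca6. It is cut from the same primary transcript as let-7e and miR-99b and is known to restrain inflammatory responses of macrophages. Levels were 1964, 2212, 1744 and 1140.2 rescaled RPM at 9 weeks and 2443, 3649, 3488 and 2009.9 at 14 weeks. The ages overlapped, since 14-week replicate 4 lay below 9-week replicate 2. The difference was 0.71 ± 0.26, a 1.64-fold ratio (limma, adjusted p = 0.772), and 0.62 in lane 2 alone. The neighbouring let-7e-5p differed by 0.27 ± 0.21 and by 0.57 in lane 2 alone, and let-7e-3p completed the 3 tested members of this cluster, all above 0 with a median of 0.27. As deposited, 1 of these 3 was above 0 and the median was -0.02. miR-125b-5p has the same seed but comes from other hairpins, on chromosomes 9 and 16. Its levels were 144 to 205 rescaled RPM at 9 weeks and 173 to 236 at 14 weeks, a difference of 0.32 ± 0.15. With miR-351-5p, the 3 tested miRNAs of this seed were all above 0, with a median of 0.32, and 2 of the 3 were above 0 as deposited (median 0.03). Under quantile normalization all 3 were above 0 with a median of 0.08.

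miR-139-5p lies in an intron of Pde2a at chr7:101475382-101475403 on the plus strand and is known as a growth-restraining miRNA in liver cells. Levels were 371, 476, 396 and 426 rescaled RPM at 9 weeks and 434, 683, 539 and 694 at 14 weeks. Among the 14-week libraries, replicate 1 lay within the 9-week range and the other 3 lay above it. The difference was 0.47 ± 0.18 (limma, adjusted p = 0.772), and 0.59 without 14-week replicate 1. Its passenger arm miR-139-3p stood at 0.428 to 2.85 rescaled RPM over the 8 libraries and differed by 0.40 ± 0.36, or by 0.098 without 9-week replicate 3 and 0.21 without 14-week replicate 4. On the X chromosome, miR-676-3p lies in an intron of Eda, with levels of 8.98, 8.36, 11.2 and 13.8 rescaled RPM at 9 weeks and 26.3, 12.6, 12.6 and 17.7 at 14 weeks. The highest value was again that of 14-week replicate 1, and the difference went from 0.64 ± 0.27 to 0.40 without it.

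miR-103-3p is made from introns of Pank3 and Pank2, and miR-107-3p from an intron of Pank1, genes of coenzyme A synthesis. Both are known for reducing insulin sensitivity in liver. For miR-103-3p the levels were 95.7, 85.3, 79.6 and 56.6 rescaled RPM at 9 weeks and 137, 108, 83.6 and 102 at 14 weeks. miR-107-3p had 137, 111, 134 and 129.6 at 9 weeks and 113, 112, 108 and 102 at 14 weeks. These miRNAs, which differ only at the base given above, had fitted differences of opposite sign: 0.44 ± 0.21 for miR-103-3p and -0.24 ± 0.12 for miR-107-3p, neither of which passed, and the difference between them was not tested. The sign of each was the same in all 21 alternative settings, which refit the same libraries and are not separate support.

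Among the leading miRNAs that were lower at 14 weeks, miR-32-5p had the smallest p. It lies in an intron of Tmem245 at chr4:56895272-56895293 on the minus strand and has the seed of the miR-25 and miR-92 family. Levels were 11.2, 14.5, 12.7 and 17.7 rescaled RPM at 9 weeks and 7.88, 10.3, 10.02 and 9.83 at 14 weeks, and every 14-week library was below every 9-week library. The difference was -0.53 ± 0.19, with a 95% interval of -0.96 to -0.10 (limma, adjusted p = 0.772), and -0.47 in lane 2 alone. The far more abundant miR-92a-3p, with the same seed, differed by 0.11 ± 0.16, or -0.05 without 14-week replicate 1. miR-30b-5p, of a family known to be abundant in many tissues, had 1979, 2529.8, 2597 and 1724 rescaled RPM at 9 weeks and 1512, 1857, 1709.7 and 1046 at 14 weeks. The 2 ages overlapped, since 9-week replicate 4 was lower than 14-week replicate 2. The difference was -0.54 ± 0.21, and -0.71 in lane 2 alone.

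The other leading miRNAs below 0 were miR-98-3p and miR-141-3p. miR-98-3p is the passenger arm of a let-7 relative in an intron of Huwe1. It was scarce, at 3.88, 3.69, 4.28 and 6.70 rescaled RPM at 9 weeks and 2.02, 2.83, 3.73 and 3.12 at 14 weeks, and differed by -0.57 ± 0.25. The guide arm miR-98-5p, at 259 to 433 rescaled RPM over the 8 libraries, differed by 0.12 ± 0.17. let-7a-1-3p and let-7c-2-3p, which share the seed of miR-98-3p, were also below 0, and RefSeq gives these 2 the same mature sequence, so that reads cannot be assigned between them by sequence. miR-141-3p belongs to the epithelial miR-200 family and had 35.5, 24.4, 33.3 and 39.6 rescaled RPM at 9 weeks and 26.7, 22.8, 23.9 and 26.7 at 14 weeks, a difference of -0.38 ± 0.17. The lowest 9-week library, replicate 2, lay within the 14-week range. Of all 173 tested miRNAs, 5 had groups that did not overlap (2.89%): miR-10b-5p, miR-30a-3p and miR-320-3p were higher at 14 weeks in every library, and miR-32-5p and miR-29b-3p lower in every library. These were 3 higher (1.73%) and 2 lower (1.16%). Groups of 4 and 4 values in random order fail to overlap with a probability of 0.0286, which is close to the share seen.

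**Figure D3:**
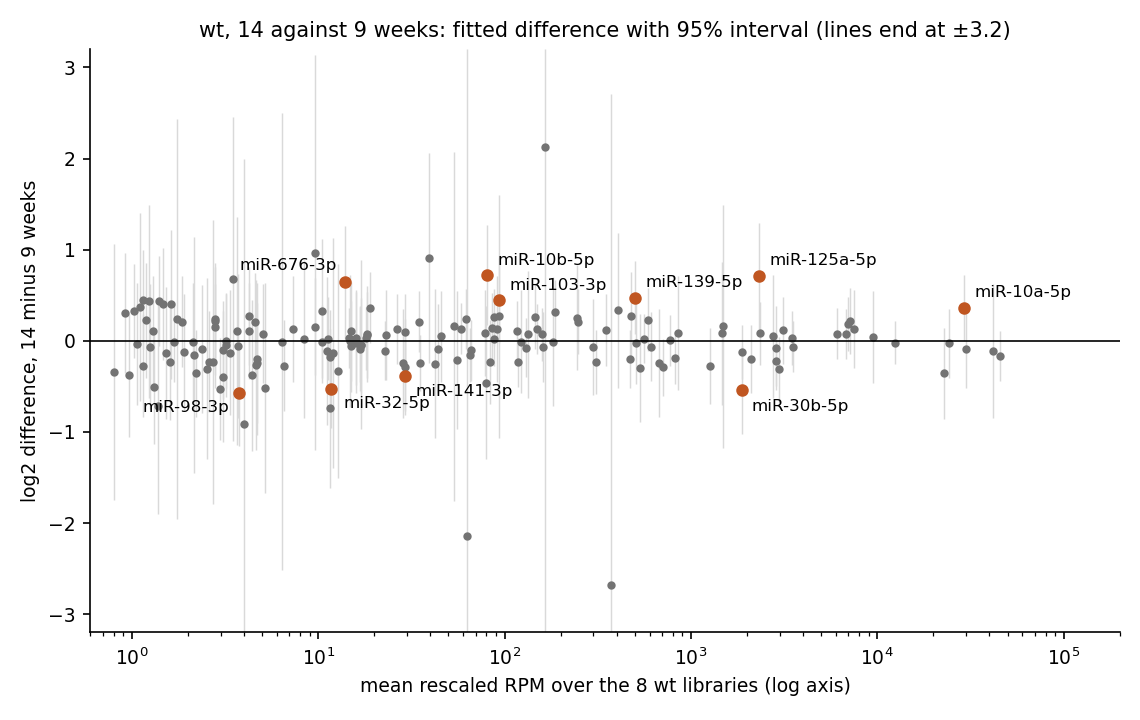
Fitted log2 difference, 14 minus 9 weeks (vertical axis), against the mean level over the 8 wt libraries in rescaled RPM (log axis) for the 173 tested miRNAs, with 95% intervals as grey lines cut at ±3.2 and the 10 miRNAs of smallest p in orange. The points spread around 0 at every level (median -0.01), and the 3 widest intervals belong to miR-199b-3p, miR-151-3p and miR-93-5p, each listed at 0 in 1 or more libraries.

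Together the 10 most abundant made up 76.8 ± 0.72% (SD, n = 4) of the listed RPM at 9 weeks and 76.1 ± 2.3% (SD, n = 4) at 14 weeks. miR-22-3p, the most abundant, had 50673, 41331, 49365 and 50047 rescaled RPM at 9 weeks and 49627, 40818, 42021 and 38759 at 14 weeks. It differed by -0.16 ± 0.12, and the ages overlapped. miR-16-5p was the most tightly measured of the 10, at 11655 to 14198 rescaled RPM at 9 weeks and 11942 to 12954 at 14 weeks, with a difference of -0.02 and a 95% interval of -0.26 to 0.21. miR-26a-5p (-0.03 ± 0.17), miR-27b-3p (0.04 ± 0.22) and let-7f-5p (-0.08 ± 0.19) also lay close to 0. In miR-191-5p, 14-week replicate 1 held 11588 rescaled RPM and the other 7 libraries 6515 to 7505. Its difference was 0.13 with that library and -0.09 without it.

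Of the macrophage miRNAs, miR-511-3p and miR-142a-5p were present in every library and did not pass the test, and miR-142a-3p, described further on, was too scarce to be tested between the ages in wt alone. miR-511-3p, whose hairpin sits inside Mrc1, had 139, 149, 155 and 128 rescaled RPM at 9 weeks and 142, 169.6, 165 and 150.3 at 14 weeks, a difference of 0.13 ± 0.12. miR-142a-5p, a marker of blood-derived cells, had 3195, 2628, 3456 and 3829 at 9 weeks and 3223, 2347, 2406 and 2555 at 14 weeks. Its difference was -0.31 ± 0.16, and -0.44 without 14-week replicate 1, which lay nearer the 9-week values. The sum of the 3 listed members of the myeloid and macrophage list was 2778 to 3958 rescaled RPM at 9 weeks and 2516 to 3365 at 14 weeks, where the highest library was replicate 1 and the other 3 (2516 to 2705) lay below every 9-week library. Most of this sum is miR-142a-5p, and the sum itself was not tested. Of miRNAs induced by inflammation, 3 of 8 tested were above 0 and 5 below, with a median of -0.03. This split was 5 above and 3 below under quantile normalization (median 0.03), 4 and 4 when divided by the listed sum (median -0.02), and 0 of 8 above as deposited (median -0.31). miR-21a-5p, induced in many inflamed tissues, had 34963, 16665, 24616 and 27094 rescaled RPM at 9 weeks and 24441, 18051, 17657 and 18555 at 14 weeks. The 9-week libraries were widely spread, with the whole 14-week range inside theirs, and the difference between ages was -0.36 ± 0.22. It was -0.49 without 14-week replicate 1, -0.20 without 9-week replicate 1 and -0.56 without 9-week replicate 2. miR-146a-5p, a feedback inhibitor of NF-kB signalling, and miR-155-5p, a promoter of inflammatory responses, were also tested and not called, at 0.16 ± 0.58 and 0.02 ± 0.38. Without 14-week replicate 1 both were below 0, at -0.14 and -0.15. miR-212-3p, induced together with miR-132, had a wide error (-0.33 ± 0.52), with its lowest values in 9-week replicate 1 and 14-week replicate 1. The other arm, miR-212-5p, was high in these same libraries, at 25.6 and 17.0 rescaled RPM, and at 1.12 to 1.54 in the others. The low values of miR-212-3p were thus not shared by its other arm, and the source of this pattern was not tested.

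miRNAs known as markers of other liver cells were also present in these libraries. Whether such cells were in the samples was not tested. In RNA from a mixture, fewer cells of a type and less RNA per cell cannot be told apart. Endothelial miR-126a-5p, from the Egfl7 gene, was the second most abundant miRNA, at 32644, 49201, 40290.5 and 46222 rescaled RPM at 9 weeks and 18512, 43883, 48822 and 55106 at 14 weeks. The sum of both miR-126a arms was 34890 to 52374 rescaled RPM at 9 weeks and 19884 to 58579 at 14 weeks, with the lowest value in 14-week replicate 1. Of hepatocyte miRNAs 2 of 4 tested were above 0 (median 0.04), with sums of 1021 to 2015 rescaled RPM at 9 weeks and 1062 to 3128 at 14 weeks. Here 14-week replicate 1 was highest, through miR-192-5p at 2720.2, and without it the median of the list was -0.26. miR-122-5p, the defining miRNA of hepatocytes, had 60.3, 16.3, 24.3 and 61.5 at 9 weeks and 185, 18.7, 14.0 and 46.9 at 14 weeks. Stellate and mesenchymal miRNAs had 3 of 6 above 0 (median -0.05) and sums of 1391 to 1671 at 9 weeks and 910 to 1730 at 14 weeks. Lymphocyte miRNAs had 3 of 4 above 0 (median 0.08) and sums of 6275 to 7473 and 6811 to 9331. Most of this sum is miR-181a-5p, at 6056 to 7070 and 6481 to 9007. The list member miR-150-5p was at 111 to 259 and 119 to 238, and differed by -0.01 ± 0.31. In 14-week replicate 1 it was 176, within the range of the other libraries. Biliary and epithelial miRNAs had 1 of 4 above 0 (median -0.09) and sums of 47.9 to 59.0 and 44.3 to 52.3. The single erythroid miRNA listed summed to no more than 1.28 rescaled RPM in any wt library and was not tested. As deposited, 0 of the tested members of the hepatocyte, endothelial, lymphocyte and epithelial lists were above 0, since 24 of 172 were above 0 among all tested miRNAs. The part of these cells in the age differences was not tested.

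**Figure D4:**
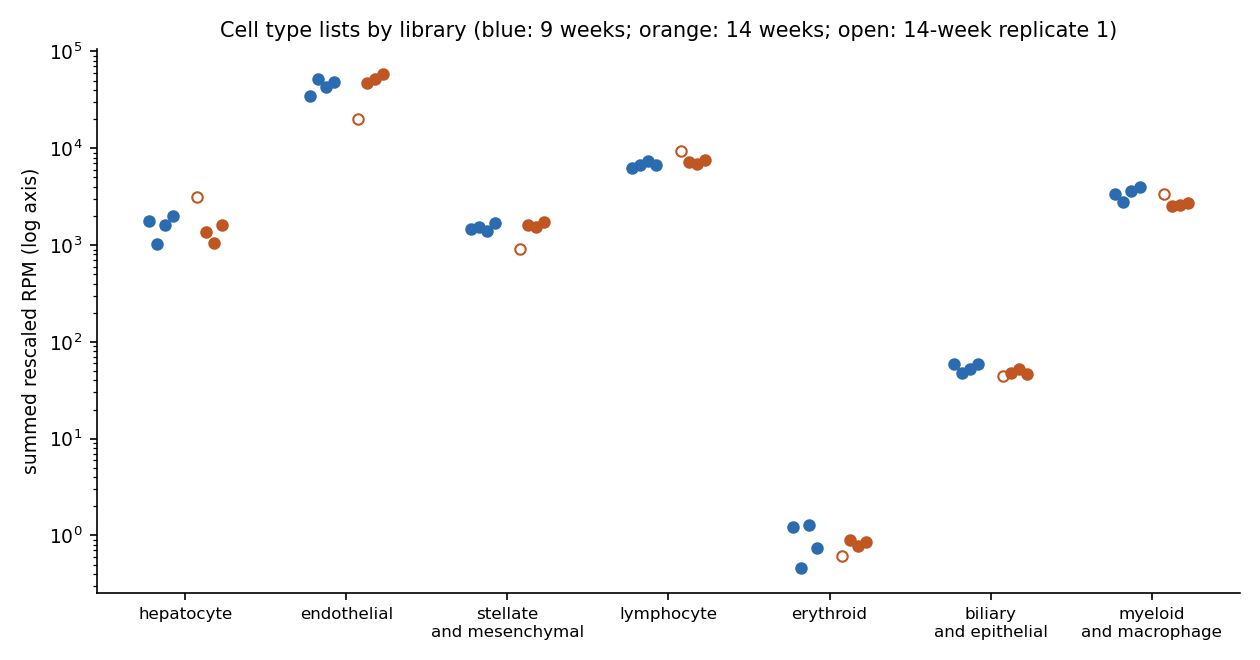
Summed rescaled RPM (log axis) of the listed members of 7 cell type lists in each wt library, blue for 9 weeks and orange for 14 weeks, with 14-week replicate 1 as an open circle. That library is lowest for the endothelial, the stellate and the biliary and epithelial lists and highest for the hepatocyte and lymphocyte lists. Most of the lymphocyte sum is miR-181a-5p. The 9-week and other 14-week libraries overlap in 6 of the 7 lists, the exception being the myeloid and macrophage list.

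Families that were followed for their known roles showed no call either. The let-7 guide arms, which restrain growth and maintain differentiation, had 6 of 9 above 0 with a median of 0.08 (0 of 9 above 0 as deposited). let-7b-5p and let-7c-5p differed by 0.23 ± 0.15 and 0.22 ± 0.16, and by 0.42 and 0.44 in lane 2 alone. The let-7 passenger arms had 1 of 6 above 0 with a median of -0.12. In the miR-29 family, known to repress collagens and other matrix genes, 0 of 5 tested were above 0, with a median of -0.18, and 1 of 5 was above 0 under quantile normalization. miR-29b-3p had 37.5, 36.0, 34.5 and 45.4 rescaled RPM at 9 weeks and 33.0, 33.3, 33.3 and 29.1 at 14 weeks, and miR-29a-3p differed by -0.18 ± 0.13. The miR-30 family was split, with 4 of 8 above 0 and a median of -0.06. Its member miR-30a-3p had 70.6, 89.7, 88.1 and 71.2 at 9 weeks and 91.6, 90.7, 90.4 and 109 at 14 weeks, a difference of 0.26 ± 0.14, or -0.03 as deposited.

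Of the miR-15 and miR-16 family, which restrains the cell cycle, 3 of 7 were above 0 (median -0.0035), and its passenger arm miR-16-1-3p differed by -0.53 ± 0.25, at 1.42 to 4.46 rescaled RPM over the 8 libraries. The growth-promoting miR-17-92 cluster and its paralogues had 2 of 3 above 0, with a median of 0.02. The miR-23, miR-24 and miR-27 clusters had 3 of 3 above 0, with a median of 0.27, but 1 of 3 as deposited and 2 of 3 under quantile normalization. miR-23b-3p differed by 0.27 ± 0.16, while miR-24-3p, at 0 to 7.79 rescaled RPM, had an SE of 0.77. miRNAs of lipid and energy metabolism had 4 of 11 above 0 (median -0.18), and those linked to senescence and ageing also 4 of 11 (median -0.16), with 3 members of the miR-29 family in both lists. In the imprinted Dlk1-Dio3 cluster, whose miRNAs are known from embryonic and neural tissue, 0 of 5 were above 0, with a median of -0.31. These were scarce: the summed level of the 9 listed members was 12.8 to 37.4 rescaled RPM at 9 weeks and 9.83 to 58.4 at 14 weeks. The highest sum was that of 14-week replicate 1, which held 11.1 rescaled RPM of miR-411-5p beside 1.80 to 2.91 in the other 14-week libraries, and without it the median of the list was -0.74.

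Members of a seed group with 2 or more tested miRNAs did not always have the same sign. The 4 miR-181 members were all above 0 (median 0.14), and all below 0 as deposited, and the 3 miR-29 guides were all below 0 (median -0.23) under every scaling tried. Among hairpins with both arms tested, the arms had the same sign in 21 of 34. Across the 173 miRNAs the difference had a Spearman rho of 0.04 with the mean level, and across 154 miRNAs with a sequence a rho of 0.20 with GC content, or 0.06 without 14-week replicate 1. These are descriptions across miRNAs that share the same 8 libraries.

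A few miRNAs had values that no gradual difference describes. miR-93-5p was listed at 0 in 14-week replicate 2 and at 234 to 585 RPM elsewhere. That zero set its fitted difference of -2.68 ± 2.26, which was -0.40 in lane 2 alone. miR-151-3p was listed at 1401 RPM in 14-week replicate 4 and at 0 to 4.395 in the others. miR-199b-3p was at 0 in 9-week replicate 3 and 14-week replicates 1 and 4 and at 60.8 to 203 RPM in the other 5. Such a pattern is listed as deposited, and its source was not tested.

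Whether the wt age difference was unlike that of ob/ob Kupffer cells was tested with the interaction of age and genotype over all 15 libraries, rescaled together. The 2 age contrasts share no library. Of 188 miRNAs tested, 0 were called (0.0%), the smallest adjusted p was 0.114, and 17 had an unadjusted p under 0.05 (9.04%). Within that fit the wt contrast again had 0 called (0.0%) and 12 at an unadjusted p under 0.05 (6.38%), and the ob/ob contrast 0 called (0.0%) and 28 at an unadjusted p under 0.05 (14.9%). Across the 188 miRNAs the wt and ob/ob age differences had a Pearson r of -0.10, given as a description. The 5 leading wt miRNAs had ob/ob differences of 0.09 for miR-10b-5p, 0.09 for miR-32-5p, 0.12 for miR-125a-5p, -0.25 for miR-139-5p and 0.09 for miR-30b-5p. In the same fit, miR-10a-5p was 0.44 in ob/ob beside 0.34 in wt.

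The smallest interaction p-values belonged to miR-188-5p, of low level, and to the far scarcer miR-375-3p. miR-188-5p had 9.67, 19.1, 17.1 and 9.56 rescaled RPM in wt at 9 weeks and 4.53, 11.6, 12.02 and 5.16 at 14 weeks. In ob/ob it had 3.98, 5.28 and 2.42 at 9 weeks and 8.29, 13.0, 10.8 and 10.8 at 14 weeks, where the 14-week libraries were all above the 9-week ones. The ob/ob difference exceeded the wt difference by 2.15 ± 0.51 (limma, adjusted p = 0.114). For miR-375-3p, an epithelial and endocrine miRNA, wt libraries held 0 to 2.46 rescaled RPM and the interaction was -2.33 ± 0.57 (limma, adjusted p = 0.114). The 2.46 was that of 14-week replicate 1. In the rescaling of the wt libraries alone, that replicate held 2.63 and the others 0 to 0.592. The filter was passed only through that replicate and 9-week ob/ob libraries in which this miRNA was high, so its small p is not separate support. Every ob/ob 14-week library was listed at 0, while the 9-week ob/ob libraries held 13, 23 and 36 reads by the step between values. The source of these zeros was not tested. miR-375-3p was tested in only 14 of the alternatives, beside 27 for miR-188-5p. miR-142a-3p, the other arm of the blood-cell marker, was at 0 to 0.129 rescaled RPM in all wt libraries, and in ob/ob at 14 weeks at 0.133, 14.4, 15.5 and 19.1. Its interaction was 3.80 ± 1.19 (limma, adjusted p = 0.237). It was called in lane 2 alone (5.04, limma, adjusted p = 1.22e-05) and without ob/ob 14-week replicate 1 (4.97, limma, adjusted p = 2.29e-08). Both settings leave out that replicate, which held the 0.133. In the main fit and in both settings, the filter was passed only through ob/ob 14-week libraries in which this miRNA was high. All other libraries were near 0, which leaves little spread to set the error. Neither call is therefore separate support. The far more abundant arm miR-142a-5p had an ob/ob difference of -0.12 and an interaction of 0.22 ± 0.31 (limma, adjusted p = 0.769). Why the arms were unlike was not tested. In wt cells, miR-19a-3p, cut from the miR-17-92 transcript, stood at 12.9, 8.49, 9.62 and 11.9 rescaled RPM at 9 weeks and 11.3, 11.8, 8.25 and 11.5 at 14 weeks. In ob/ob cells its difference was 1.27, and the interaction was 1.27 ± 0.41 (limma, adjusted p = 0.237). It was called only without ob/ob 14-week replicate 1 (limma, adjusted p = 0.0209). miR-138-5p and miR-34c-5p also had an ob/ob difference above that of wt, by 1.36 and 0.79.

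miR-146a-5p had a wide spread within wt. Its levels were 1708, 586, 797 and 2257 rescaled RPM at 9 weeks and 2231, 654, 789 and 2295 at 14 weeks, so that both ages held low and high libraries. In ob/ob it was 2779, 5544 and 5248 at 9 weeks and 1141, 890.2, 1537 and 1620.5 at 14 weeks, with no overlap. The interaction was -1.92 ± 0.73 (limma, adjusted p = 0.351). miR-676-3p, one of the leading wt miRNAs, had an ob/ob difference of -0.51 and an interaction of -1.13 ± 0.41 (adjusted p = 0.351). miR-184-3p and miR-191-3p likewise had interactions below 0, at -2.22 and -1.07 (limma, adjusted p = 0.237 for each).

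**Figure D5:**
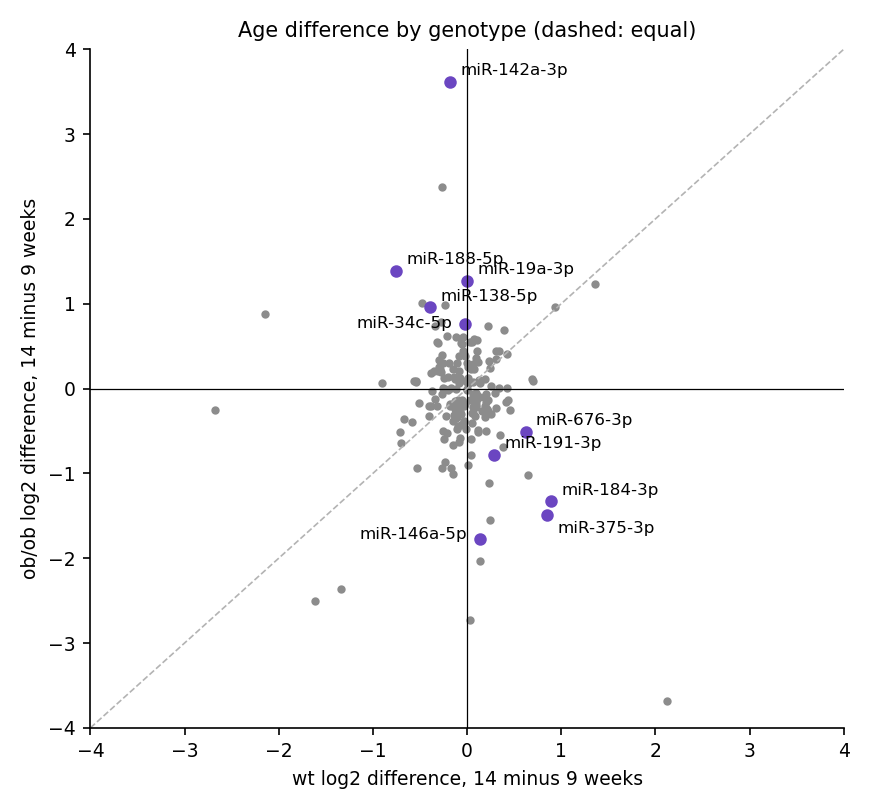
Log2 difference, 14 minus 9 weeks, in wt (horizontal axis) and ob/ob (vertical axis) for the 188 miRNAs tested in all 15 libraries, with the 10 miRNAs of smallest interaction p (5 in each direction) in purple and equal differences as a dashed line. The wt and ob/ob differences had a Pearson r of -0.10, and the purple points lie off the dashed line.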

How the data were processed

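Small RNA was extracted with the miRNeasy mini kit, prepared with the TruSeq Small RNA kit and sequenced on an Illumina HiSeq instrument, per the labels' protocols. The deposited tables list the same 248 miRNAs at each age, without a stated unit. Per the submitters' processing notes, the tools were bcl2fastq and cutadapt; the same notes name mm10 and GRCm38.p5. For the aligner, counting and denominator of the RPM values: not given in the sources used here. Deposited values were read as RPM, since in each library every value was a whole number of equal steps (within 0.1 of a step). Under that assumption the step gave the depth quoted. Counting error is small for abundant miRNAs, and 1 RPM stands for 9.08 to 39.0 reads in these 8 libraries.

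Both tables were joined on miRNA name. The 8 wt libraries were rescaled together by the median ratio, using the 121 miRNAs detected in all of them whose mean reached 5 RPM. miRNAs with at least 1 rescaled RPM in at least 4 libraries were tested on log2(RPM + 0.5), which understates the change of low miRNAs, with limma 3.58.1 (trend, robust) in R 4.3.3 and Benjamini-Hochberg adjustment, threshold 0.05. The interaction was fitted over all 15 libraries, with the filter at 3 libraries. Sums and depths were compared by two-sided exact permutation tests. The fit was tested on simulated data. Alternatives were other scalings, pseudocounts (0.1 and 2), filters, lane 2 alone, lane as a term, zeros as missing, a replicate block and leaving out each library.

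Where none passed, the rule named the 10 smallest p, and besides them the most abundant miRNAs, the other arms of named hairpins, up to 4 members of each list by p, and the 5 smallest interaction p in each direction. Only the 2 smallest p of most lists are given with values. The miRNAs and lists were chosen with earlier results of these data known. Some miRNAs are not analysed here.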

Additional observations from a re-analysis of the deposited data

Results flagged for a closer look

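In 114 groups of 4 wt libraries, 14 had one library far from the other 3 by Dixon's ratio, where chance gives about 1 in 20. Of the 14, 6 were 14-week replicate 1, the library with the lowest listed sum. It was high in miR-21a-5p (24441 rescaled RPM, others 17657 to 18555), miR-191-5p (11588.5, others 6539 to 7108), miR-320-3p (47.5, others 34.1 to 34.9), miR-411-5p (11.1, others 1.80 to 2.91) and miR-200c-3p (2.22, others 1.09 to 1.19), and low in miR-126a-3p (1372, others 3205 to 3478).

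At 14 weeks, replicate 4 was high in miR-143-3p (688 rescaled RPM, others 399 to 415) and miR-30a-3p (109, others 90.4 to 91.6) and low in miR-29b-3p (29.1, others 33.0 to 33.3). For miR-30a-3p and miR-29b-3p the outlying library lies further from the 9-week values than the other 3. At 9 weeks, replicate 1 was high in miR-30b-3p (11.2 rescaled RPM, others 5.42 to 5.99) and in implied depth (22.8 reads for each RPM, others 13.4 to 14.3). Replicate 2 at 9 weeks was low in miR-93-5p (385 rescaled RPM, others 479.6 to 497) and miR-22-3p (41331, others 49365 to 50673). Replicate 3 at 9 weeks was high in miR-155-5p (15.6 rescaled RPM, others 5.83 to 6.63).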

How the results depend on the processing

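No miRNA was called between the ages under any of 21 alternatives, with a smallest adjusted p of 0.192 (limma). The count at an unadjusted p under 0.05 was 7 and became 11 with no filter, 14 in lane 2 alone, 14 with the replicate block, 12 with all 15 libraries in the fit, and 4 to 25 when each library was left out. Same-numbered samples deviated together with r of 0.21, 0.15, -0.33 and -0.18, and samples of unlike number with r of -0.33 to 0.58. Not every library correlated best with its own number. With so few samples, this check cannot tell whether the numbers pair them. In the interaction, 1 miRNA was called in lane 2 alone (miR-142a-3p), 1 with the replicate block (miR-188-5p, limma, adjusted p = 0.0384), and 0 to 2 when each library was left out. The 2 were miR-142a-3p and miR-19a-3p, without ob/ob 14-week replicate 1. miR-142a-3p passed the filter only through ob/ob libraries in which it was high. The count at an unadjusted p under 0.05, 17, became 48 as deposited and 11 to 25 when each library was left out. The listed sum was 6744 RPM higher at 14 weeks in lane 2 alone, and between -70569 and -1755 RPM when each library was left out. The 10 leading miRNAs kept their direction in every alternative. Since they were chosen by p from the same libraries that the alternatives refit, this is not separate support. Of the 55 miRNAs followed through these alternatives, 26 kept their direction, and the others reversed as follows, none called. As deposited, where the median of all miRNAs was -0.27: miR-30b-3p (-0.14), miR-98-5p (-0.17), miR-192-5p (-0.21), miR-126a-3p (-0.24), miR-181a-5p (-0.11), miR-181b-5p (-0.18), miR-511-3p (-0.15), miR-146a-5p (-0.13), miR-155-5p (-0.25), let-7b-5p (-0.057), let-7c-5p (-0.068), let-7e-5p (-0.019), miR-92a-3p (-0.18), miR-195a-5p (-0.16), miR-23b-3p (-0.022), miR-30a-3p (-0.030), miR-27b-3p (-0.25), miR-191-5p (-0.16) and miR-320-3p (-0.074). In lane 2 alone: miR-10a-3p (0.23), miR-215-5p (0.20), miR-192-5p (-0.26), miR-126a-5p (0.31), miR-212-3p (0.20), let-7f-5p (0.15), miR-155-5p (-0.44), miR-26a-5p (0.13) and miR-191-5p (-0.050). With lane as a term: miR-10a-3p (0.24), miR-215-5p (0.21), miR-192-5p (-0.25), miR-126a-5p (0.32), miR-212-3p (0.21), let-7f-5p (0.16), miR-155-5p (-0.43), miR-26a-5p (0.14) and miR-191-5p (-0.041). With quantile normalization: miR-126a-5p (0.069), miR-126a-3p (-0.079), let-7f-5p (0.023), miR-26a-5p (0.052), miR-27b-3p (-0.087) and miR-191-5p (-0.053). With all 15 libraries in the fit: miR-155-5p (-0.0037). When each library was left out, ranges crossing 0 were miR-10a-3p (-0.47 to 0.17), miR-146a-5p (-0.19 to 0.49), miR-155-5p (-0.15 to 0.34), miR-98-5p (-0.013 to 0.24), miR-215-5p (-0.21 to 0.10), miR-192-5p (-0.25 to 0.29), miR-126a-5p (-0.30 to 0.21), miR-126a-3p (-0.090 to 0.35), miR-145a-5p (-0.081 to 1.43), miR-200c-3p (-0.34 to 0.073), miR-212-3p (-0.68 to 0.13), miR-92a-3p (-0.053 to 0.20), miR-24-3p (-0.098 to 1.05), let-7f-5p (-0.28 to 0.039), miR-26a-5p (-0.11 to 0.11), miR-16-5p (-0.071 to 0.030), miR-27b-3p (-0.11 to 0.24) and miR-191-5p (-0.087 to 0.22). The cause of these reversals was not tested. Depth limits miRNAs near 1 RPM most.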

Other observations

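When 14-week replicate 1 was left out, the smallest adjusted p was 0.192 (limma), shared by miR-10a-5p, miR-139-5p and miR-125b-1-3p, so that none was called. The miRNAs in the rest of this paragraph were chosen after their values were seen. miR-125b-1-3p is the passenger arm of a hairpin on chromosome 9, in the same region as the hairpin of miR-100. Its levels were 7.64, 8.16, 9.28 and 9.92 rescaled RPM at 9 weeks and 4.85, 13.9, 16.9 and 12.8 at 14 weeks. The first 14-week value lay below all 9-week values and the other 3 above them. The same arrangement was seen for miR-100-3p, with 1.09, 1.18, 1.21 and 1.12 rescaled RPM at 9 weeks and 0.809, 2.30, 1.79 and 2.24 at 14 weeks. The differences were 0.33 and 0.41 with all 8 libraries, and 0.68 ± 0.16 and 0.65 ± 0.17 without 14-week replicate 1. miR-100-3p is scarce, and the shared direction was not tested.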
